A study of Saccharomyces cerevisiae with 3 samples.

Results

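The cleavage pattern of a nuclear pore protein fusion, Nup2-MN, was set against that of a histone fusion, H2b-MN, along yeast (Saccharomyces cerevisiae) chromosome VI. The quantity described is the log2 array signal after Nup2-MN cleavage minus the log2 signal after H2b-MN cleavage, taken for each probe set, a group of neighbouring array probes that is read as 1 value. All 1250 of the 1250 probe sets of the series were used, and 2 of its 3 samples form the difference. The members were chosen by their samples and not by any measured value. The Nup2-MN sample had been cleaved in vivo for 5 min at 30 °C. The H2b-MN sample had been cleaved in vivo for 1 min on ice. The remaining sample was uncleaved DNA, whose level is given beside the others. All cultures had 2% raffinose as carbon source and received 2% galactose for 1 h. Strain background and the way the fusions were expressed were not given in the sources used here. Fusion, cleavage time and temperature changed together, so their shares in any difference cannot be told apart. Each sample is a single column, the authors' mean of 3 experiments, and the spread of those experiments was not analysed here. A difference below therefore has no error between experiments, no test and no p-value, and every SD is a spread over probe sets.

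In chromatin endogenous cleavage (ChEC), a protein is fused to micrococcal nuclease (MN), which cuts DNA once calcium is added, so that cuts fall near the places where the fusion sits. Histone H2b is a core part of the nucleosome, and a histone fusion can cut wherever nucleosomal DNA or the linker beside it can be reached. Nup2 belongs to the basket on the nuclear side of the pore, takes part in the transport of proteins into and out of the nucleus, and moves between the pore and the nuclear interior. Nucleoporins are known to touch chromatin, and the publication these arrays belong to has as its subject the contact of the nucleopore with gene promoters. None of the identifiers could be tied to a gene (0 matched), and coordinates were not used here, so how far the stretches below lie at promoters was not analysed here. The sources used here do not say if a cut raises or lowers the signal near it, so higher and lower refer to array signal alone. The number in an identifier is taken as its order along the chromosome, which the sources used here do not state outright.

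Most probe sets were less than 2-fold apart between the cleavages, yet many differed by at least 0.5 on the log2 scale. Nup2-MN was higher by that much in 164 (13.1% of the 1250) and lower in 195 (15.6%). The largest departures were those where Nup2-MN was the higher. Nup2-MN minus H2b-MN had a median of -0.065 on the log2 scale and an SD of 0.516 over the 1250 probe sets. The 5th to 95th percentiles ran from -0.76 to 0.91. The highest value was 2.16 and the lowest -1.44. At a 2-fold threshold, 54 probe sets were higher in Nup2-MN (4.32% of the 1250) and 23 were lower (1.84%). The balance depended on how the columns were brought to 1 scale. Of the 77 probe sets past 2-fold, 70.1% were higher in Nup2-MN, against 84.9% of 93 after the column medians had been set equal and 82.5% of 80 after a trend with signal level had been removed. Probe sets near the threshold differed little across it. The last one counted as higher, c6Mbo0685, read 7.03 in Nup2-MN and 6.03 in H2b-MN, a difference of 1.00. The first one not counted, c6Mbo0688, read 9.26 and 8.27 in the same samples, a difference of 0.99. On the lower side the difference was -1.01 for c6Mbo0536, which was counted, and -0.998 for c6Mbo0372, which was not.

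**Figure D1:**
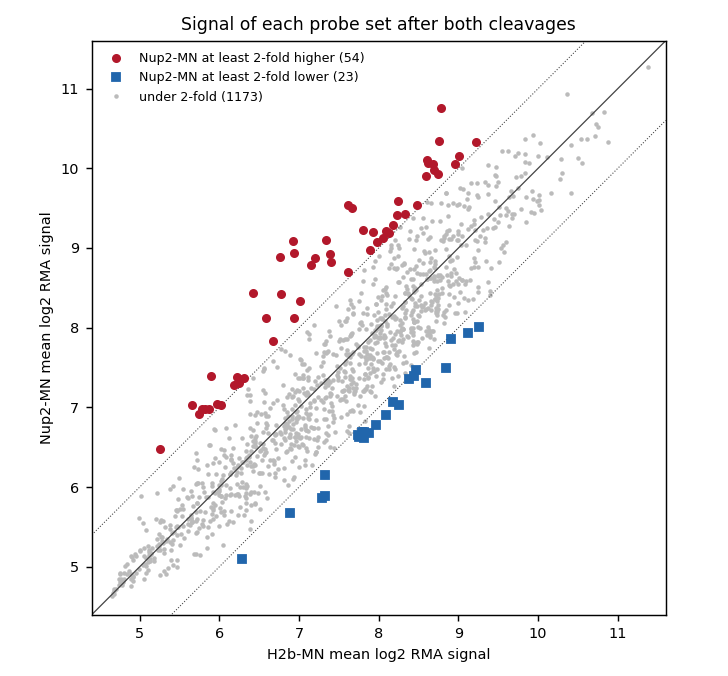
Each point is a probe set, with its mean log2 RMA signal in Nup2-MN on the vertical axis and in H2b-MN on the horizontal axis. The solid line marks equal signal and the dotted lines a 2-fold difference; 54 probe sets lie above the upper line and 23 below the lower.

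The departures were gathered into stretches. A domain was defined as an unbroken stretch in which the running mean of the difference over 11 neighbouring probe sets was at least 0.4 in size. By this rule Nup2-MN was higher than H2b-MN in 13 domains that covered 126 probe sets (10.1% of the 1250) and lower in 20 domains that covered 157 (12.6%). Domains of at least 5 probe sets numbered 10 on the higher side and 12 on the lower side. The higher ones held 5 to 29 probe sets with domain means from 0.47 to 0.91. The lower ones held 5 to 24 probe sets with domain means from -0.72 to -0.36. Values varied more within higher domains: the SD over their probe sets was 0.53, against 0.32 in the lower domains and 0.40 in the 967 probe sets of neither. The 2 single-probe-set domains on the higher side, 1018 and 1212, owed their place to their neighbours, since the differences of c6Mbo1018 and c6Mbo1212 were -0.47 and -0.07. On the lower side c6Mbo0384, a domain of its own, had a difference of 0.10. The lower domains depended on how the columns were scaled. With the column medians set equal, 7 lower domains with 42 probe sets were left, while the higher domains numbered 16 with 194 probe sets, among them all 126 of the original ones. Quantile normalization over the 3 columns left 17 lower domains with 120 probe sets and 11 higher domains with 130.

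**Figure D2:**
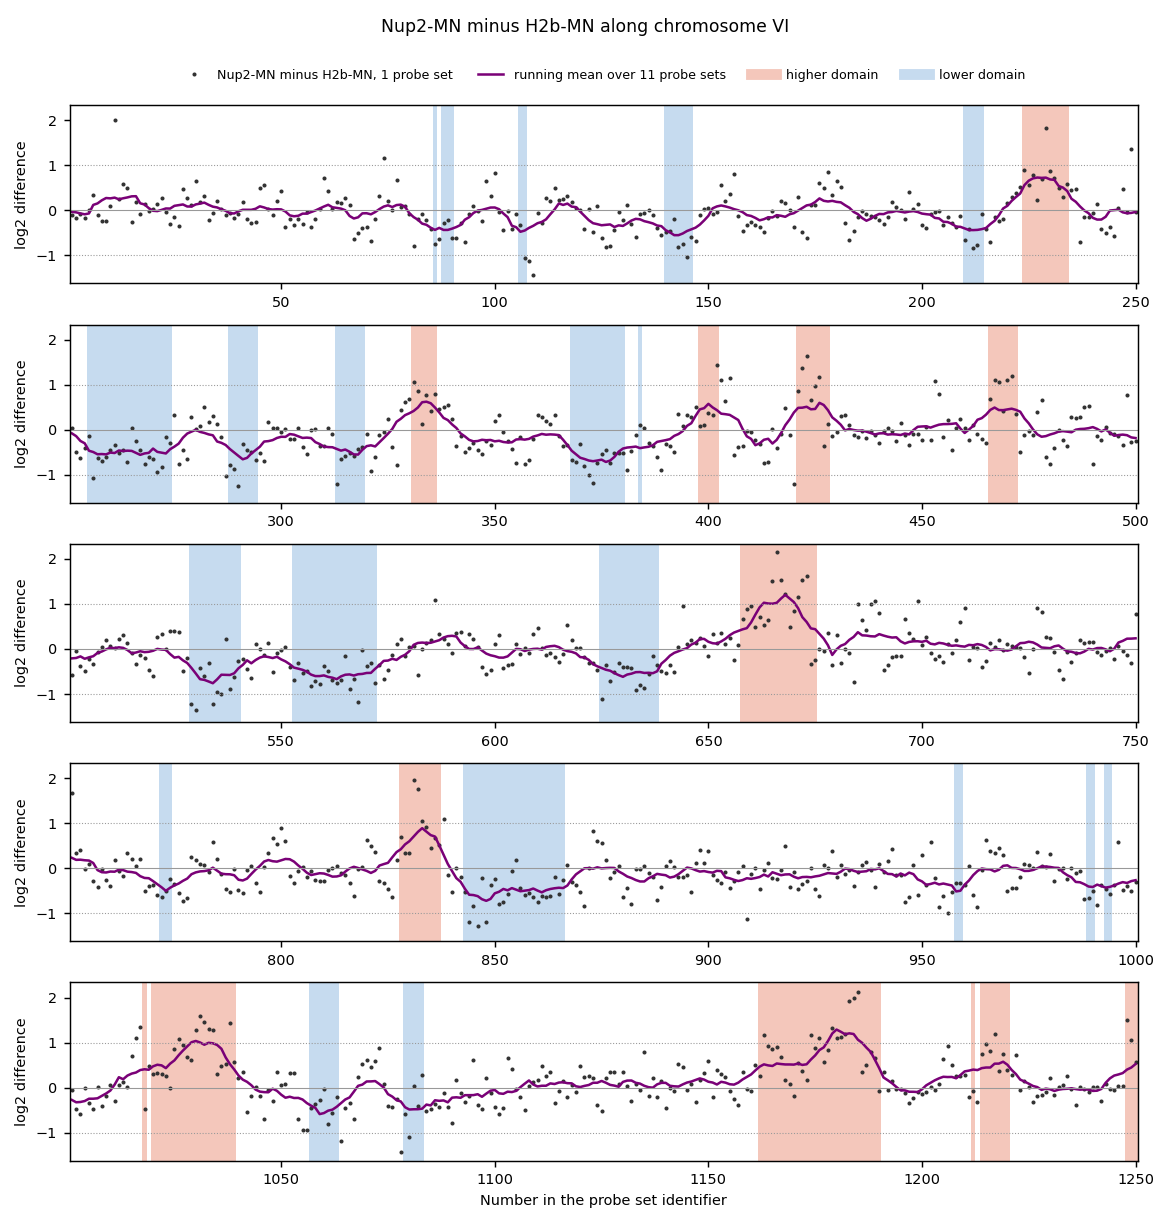
Nup2-MN minus H2b-MN (log2, vertical axis) against the number in the probe set identifier (horizontal axis), in 5 rows of 250 probe sets. Points are probe sets, the line is the running mean over 11 of them, and shading marks the 13 higher and 20 lower domains; the highest running means lie near 670, 1030 and 1180.

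Uncleaved DNA served as a level from which the distance of each cleaved sample was taken. In the 126 probe sets of higher domains, the median of Nup2-MN minus uncleaved was 0.68 and that of H2b-MN minus uncleaved was -0.09. In the 157 probe sets of lower domains, the same medians were -0.59 for Nup2-MN and -0.06 for H2b-MN. The median departure from uncleaved DNA was thus the greater in size, whatever its sign, in Nup2-MN in both kinds of domain. Nup2-MN was the farther from uncleaved DNA in 68.3% of probe sets of higher domains and 80.9% of those of lower ones, against 63% of all. In part of the probe sets H2b-MN departed from uncleaved DNA in spite of its small medians. It was at least 0.5 below uncleaved DNA in 20.6% and at least 0.5 above it in 11.9% of higher-domain probe sets. In lower domains these shares were 6.37% and 12.1%, and over all 1250 probe sets 15.2% and 13.4%. Departures of H2b-MN of that size were thus less frequent in lower domains than over all probe sets. Nup2-MN was below uncleaved DNA in 150 of the 157 probe sets of lower domains and above it in 103 of the 126 of higher domains. Over all 1250 probe sets Nup2-MN was below uncleaved DNA in 739 and above it in 511. In each of the 12 lower domains of at least 5 probe sets, the mean of H2b-MN stayed within 0.2 of uncleaved DNA, between -0.20 and 0.19, while that of Nup2-MN lay between -0.81 and -0.40. The higher domains were less uniform. The mean of Nup2-MN minus uncleaved was above 0 in all 10 of them, from 0.12 to 1.30, while that of H2b-MN minus uncleaved ran from -0.42 to 0.55 and was below 0 in 8. The 0.12 was that of 398 to 402, where Nup2-MN was above uncleaved DNA in only 1 of 5 probe sets. The 3 differences are bound by arithmetic, since any 2 of them give the third, and they share columns, so these values describe the domains and are not separate evidence for them.

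**Figure D3:**
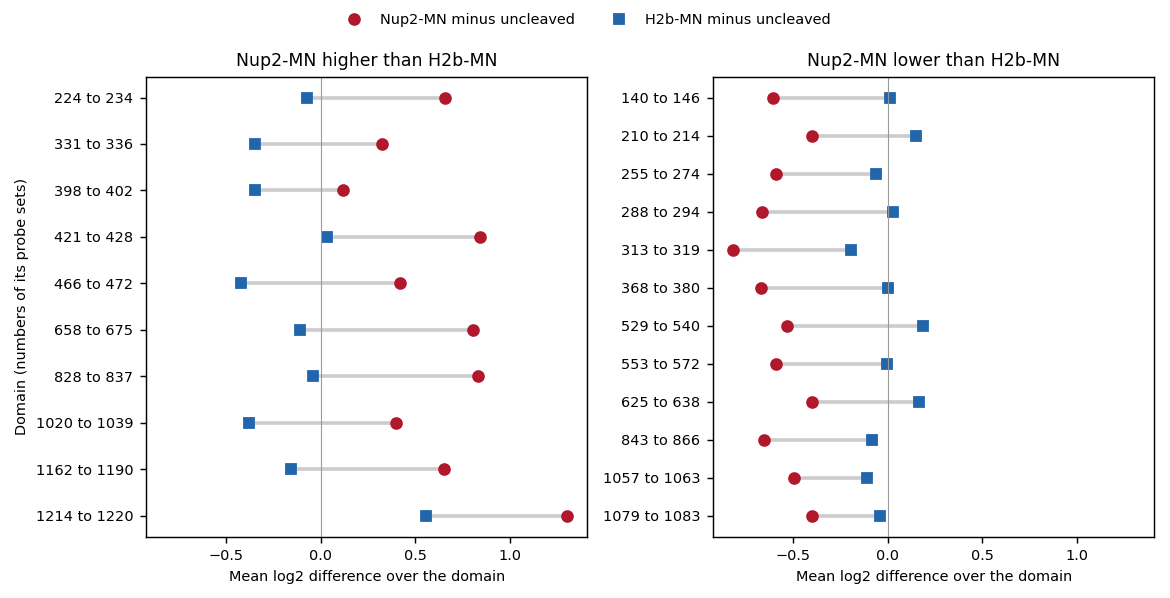
Mean log2 difference from uncleaved DNA (horizontal axis) over each domain of at least 5 probe sets, for Nup2-MN (circles) and H2b-MN (squares), with higher domains on the left and lower domains on the right. On the right every square lies within 0.2 of 0 and every circle at -0.40 or below; on the left the squares range from -0.42 to 0.55.

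In the most extreme single probe sets the histone sample often departed from uncleaved DNA too. In the 10 highest differences, Nup2-MN was above uncleaved DNA in all 10 (median 1.03), and H2b-MN was at least 0.5 below it in 7 (median -0.91). Over all 1250 probe sets, 15.2% had H2b-MN that far below uncleaved DNA. In the 10 lowest differences, H2b-MN was at least 0.5 above uncleaved DNA in 7 (median 0.75), against 13.4% of all probe sets, and Nup2-MN was below it in all 10 (median -0.52). The wider groups past 2-fold gave these counts. Of the 54 higher ones, 45 (83.3%) had Nup2-MN at least 0.5 above uncleaved DNA and 19 (35.2%) had H2b-MN at least 0.5 below it, against 19.2% and 15.2% of all probe sets. Of the 23 lower ones, 14 (60.9%) had Nup2-MN at least 0.5 below uncleaved DNA and 15 (65.2%) had H2b-MN at least 0.5 above it, against 28.0% and 13.4% of all. A choice by the difference raises such shares by construction, and nothing is read from them beyond the values.

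Among domains of at least 5 probe sets the highest mean was that of 658 to 675, with a mean difference of 0.91 (SD 0.64 over 18 probe sets) and 7 probe sets past 2-fold. Its peak, c6Mbo0666, read 9.08 in Nup2-MN, 6.93 in H2b-MN and 6.997 in uncleaved DNA. The difference between the cleaved samples was 2.16, or 4.46-fold. At this probe set the histone sample was 0.07 from the uncleaved level (log2 difference -0.07). On the left of the domain it lay lower, with H2b-MN minus uncleaved at -0.55 and Nup2-MN minus uncleaved at 0.16 in c6Mbo0662. Probe set c6Mbo0665 read 10.11, 8.61 and 8.85 in the same order of samples, and c6Mbo0667 read 8.12, 6.58 and 6.79. A second crest followed within the domain, where c6Mbo0672 read 8.92 in Nup2-MN, 7.39 in H2b-MN and 7.12 in uncleaved DNA. The next, c6Mbo0673, read 8.78, 7.15 and 7.05. Between these crests c6Mbo0669 differed by only 0.48. An abrupt fall near the right end lay inside the domain. c6Mbo0674 read 7.22 in Nup2-MN and 7.57 in H2b-MN, so that the difference was 1.63 at c6Mbo0673 and -0.34 at c6Mbo0674. The last probe set of the domain, c6Mbo0675, also had Nup2-MN lower, with a difference of -0.25. The domain 421 to 428 was more mixed, although its mean of H2b-MN minus uncleaved was only 0.04. That value was -1.54 at c6Mbo0421, where Nup2-MN minus uncleaved was -0.68 as well, and 0.71 at c6Mbo0424. In between, c6Mbo0423 read 8.42 in Nup2-MN, 6.78 in H2b-MN and 6.39 in uncleaved DNA (difference 1.64), and c6Mbo0422 read 7.03, 5.66 and 5.58 (1.38).

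In 1162 to 1190, the longest domain, the pattern changed along its length. The mean difference over its 29 probe sets was 0.81 (SD 0.58), and 10 were past 2-fold. Near its left end c6Mbo1165 read 9.69 in Nup2-MN, 8.84 in H2b-MN and 7.88 in uncleaved DNA, so that both cleaved samples were above uncleaved DNA and Nup2-MN the more so. A few probe sets further on the difference was small, with 0.09 at c6Mbo1169 and -0.18 at c6Mbo1170. In the middle it was large again, with 1.16 at c6Mbo1174 and 1.11 at c6Mbo1176. At c6Mbo1182 it was 1.19, where Nup2-MN read 9.93, H2b-MN 8.74 and uncleaved DNA 8.67. In the next 3 probe sets the histone sample dropped away. c6Mbo1183 read 9.54 in Nup2-MN, 7.61 in H2b-MN and 9.13 in uncleaved DNA, a difference of 1.93. c6Mbo1184 read 8.94, 6.94 and 8.17 in the same order, a difference of 2.00. c6Mbo1185 read 8.88, 6.76 and 7.83, a difference of 2.12. The largest differences of this domain thus stood where H2b-MN minus uncleaved was -1.52 to -1.07 and Nup2-MN minus uncleaved 0.41 to 1.06. At c6Mbo1186 the H2b-MN level was back at 8.58, beside 8.93 in Nup2-MN and 8.62 in uncleaved DNA, and the difference was 0.35.

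The domain 1020 to 1039 had a mean difference of 0.78 (SD 0.48 over 20 probe sets), with 7 past 2-fold. Over the whole domain Nup2-MN averaged 8.95, H2b-MN 8.17 and uncleaved DNA 8.55, so that the cleaved samples lay on opposite sides of uncleaved DNA by similar amounts, 0.40 above and -0.38 below. In its core, from c6Mbo1031 to c6Mbo1034, H2b-MN minus uncleaved ran from -1.23 to -0.85. The H2b-MN level was 8.75, 8.61, 8.59 and 8.69 at c6Mbo1031, c6Mbo1032, c6Mbo1033 and c6Mbo1034, beside 10.34, 10.07, 9.90 and 9.97 in Nup2-MN and 9.64, 9.84, 9.60 and 9.54 in uncleaved DNA. The differences there were 1.58, 1.46, 1.31 and 1.28. At c6Mbo1035, the neighbour on the right, H2b-MN read 9.37 and the difference was 0.31. The left part of the domain was shallower, with differences from 0.25 to 0.32 in c6Mbo1020, c6Mbo1021, c6Mbo1022 and c6Mbo1023 and none (-0.002) in c6Mbo1024. At c6Mbo1020, c6Mbo1021 and c6Mbo1022 both cleaved samples were below uncleaved DNA. H2b-MN minus uncleaved was -0.88, -0.77 and -0.49 there. The difference did not simply fade to the left. Just outside the domain c6Mbo1017 read 9.59 in Nup2-MN and 8.24 in H2b-MN, a difference of 1.35, and its neighbour c6Mbo1018 differed by -0.47.

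The domain 828 to 837 held an abrupt turn between the samples. At c6Mbo0830 both cleaved samples were far above uncleaved DNA, where Nup2-MN read 10.18 and H2b-MN 9.83, beside 7.76, and the difference between them was 0.34. At the next probe set, c6Mbo0831, Nup2-MN read 10.75, H2b-MN 8.78 and uncleaved DNA 10.15. The histone sample was now 1.37 lower than uncleaved DNA (log2 difference -1.37) and the difference 1.97. At c6Mbo0832 the levels were 9.10, 7.33 and 8.33 (difference 1.77) and at c6Mbo0833 7.37, 6.31 and 7.25 (difference 1.06). From c6Mbo0834 on H2b-MN was again close to uncleaved DNA, with 7.82 against 7.78, while Nup2-MN read 8.73. The same domain therefore held probe sets where both samples rose over uncleaved DNA, where they parted, and where Nup2-MN alone stood apart.

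**Figure D4:**
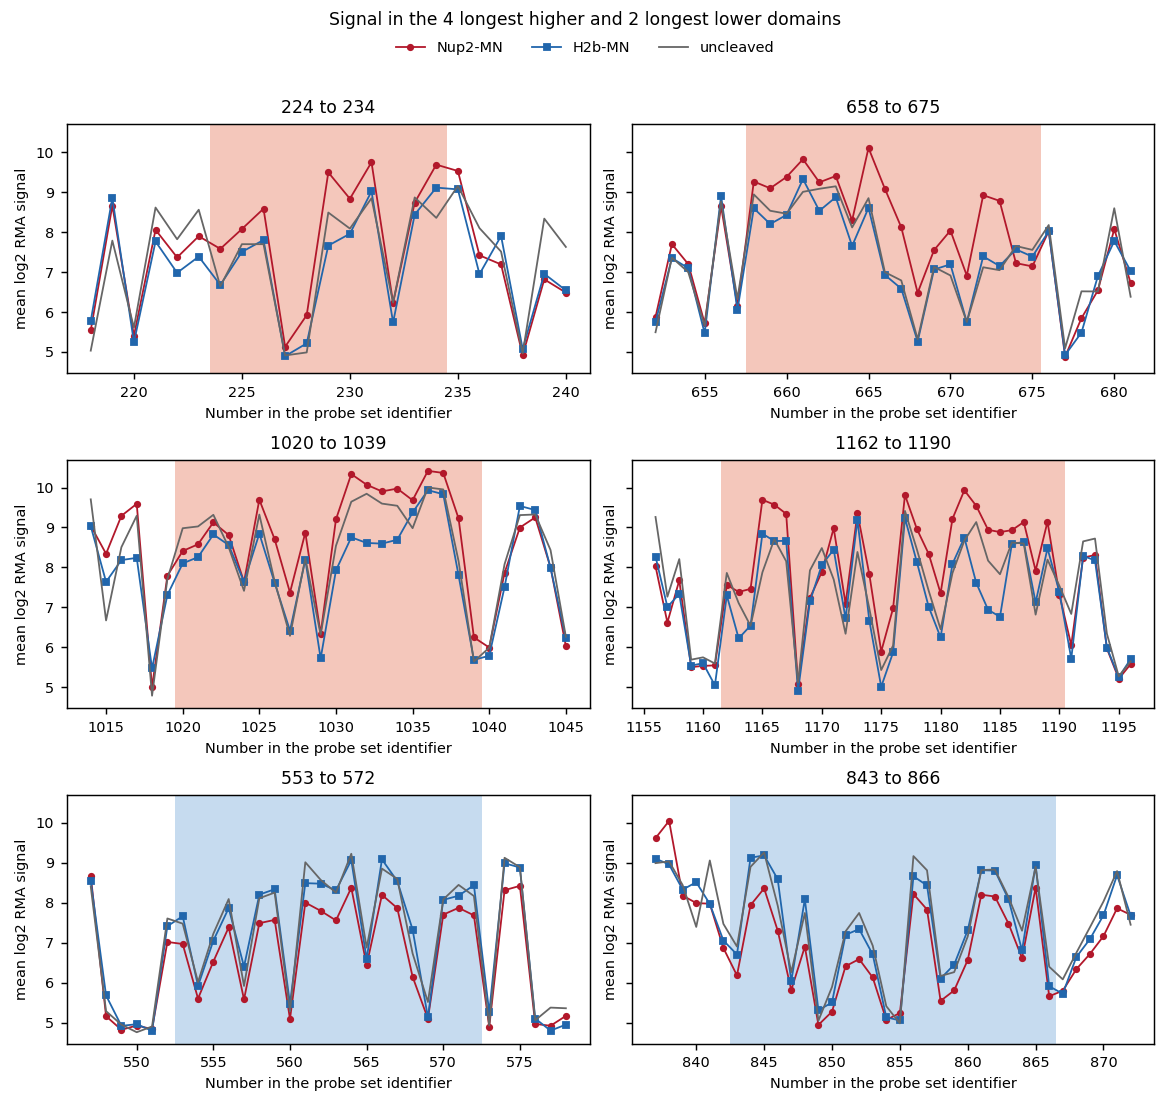
Mean log2 RMA signal (vertical axis) of Nup2-MN, H2b-MN and uncleaved DNA against the number in the probe set identifier, in 4 higher domains (red shading) and 2 lower domains (blue shading) with 6 probe sets on either side. They are the longest on each side, with 553 to 572 taken over 255 to 274 of equal length. In 658 to 675 the H2b-MN and uncleaved lines run close together below Nup2-MN from 665 to 673, in 1020 to 1039 and at 1183 to 1185 the H2b-MN line dips below uncleaved DNA, and in 843 to 866 Nup2-MN runs below both others at nearly all probe sets.

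The shorter higher domains were mixed in form. In 466 to 472 the mean difference was 0.84 (SD 0.35 over 7 probe sets). Its highest value, 1.20 at c6Mbo0471, came from 6.99 in Nup2-MN and 5.79 in H2b-MN, both under the 7.51 of uncleaved DNA. In 331 to 336, with a mean of 0.67 and its highest difference, 1.06, at c6Mbo0331, c6Mbo0334 likewise had both cleaved samples below uncleaved DNA, at 7.66 in Nup2-MN, 6.89 in H2b-MN and 8.21 in uncleaved DNA. A positive difference was thus not always a Nup2-MN signal above uncleaved DNA. In 224 to 234, with a mean of 0.73, c6Mbo0229 read 9.50 in Nup2-MN, 7.66 in H2b-MN and 8.49 in uncleaved DNA (difference 1.83). In 398 to 402, with a mean of 0.47, a single probe set carried the height: c6Mbo0402 differed by 1.43, where Nup2-MN read 8.83 and H2b-MN 7.40, and the 4 others by 0.09 to 0.38. At those 4 Nup2-MN was below uncleaved DNA, with log2 differences from -0.38 to -0.08. The height of c6Mbo0402 went on past the right border of the domain. There c6Mbo0403, c6Mbo0404 and c6Mbo0405 differed by 1.10, 0.63 and 1.15, although their running means were under 0.4. Near the end of the chromosome, in 1214 to 1220, both cleaved samples were on average above uncleaved DNA, Nup2-MN the further: its mean distance was 1.30, beside 0.55 for H2b-MN. At c6Mbo1216 and c6Mbo1217 H2b-MN was below uncleaved DNA, at -0.20 and -0.08. The whole stretch from 1201 to 1250 also had both samples above on average, Nup2-MN by 0.62 and H2b-MN by 0.41. The highest difference in 1214 to 1220 was 1.19, at c6Mbo1217. Of the 10 highest values of the chromosome, 2 stood outside any higher domain, those of c6Mbo0011 (2.02) and c6Mbo0751 (1.67). Probe set c6Mbo0751 read 8.87 in Nup2-MN, 7.20 in H2b-MN and 7.47 in uncleaved DNA. The last 3 probe sets, 1248 to 1250, had a mean difference of 1.05. This last stretch includes c6Mbo1248, at 7.39 in Nup2-MN, 5.90 in H2b-MN and 5.45 in uncleaved DNA.

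Most lower domains were shallow, and the evenness of their values varied. The SD over probe sets was 0.53 in 1079 to 1083, where 3 of 5 differences were below 0 and the highest was 0.27, and 0.24 in 368 to 380, where all 13 were below 0. The longest lower domain, 843 to 866, had a mean difference of -0.57 (SD 0.35), and 23 of its 24 probe sets were below 0. Its levels averaged 6.69 in Nup2-MN, 7.26 in H2b-MN and 7.34 in uncleaved DNA. At c6Mbo0861, c6Mbo0862 and c6Mbo0863 Nup2-MN read 8.20, 8.15 and 7.48, H2b-MN 8.81, 8.80 and 8.09, and uncleaved DNA 8.82, 8.83 and 8.14. The histone and uncleaved values at these probe sets differed by at most 0.05, and Nup2-MN lay 0.61 to 0.65 under H2b-MN. Only 3 of the 24 were past 2-fold. The lowest was c6Mbo0846, with 7.30 in Nup2-MN, 8.59 in H2b-MN and 7.93 in uncleaved DNA (difference -1.29), where H2b-MN was above uncleaved DNA.

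The domains 553 to 572 and 255 to 274 were of the same kind. In 553 to 572 all 20 differences were below 0, with a mean of -0.58 (SD 0.27), and all 20 Nup2-MN values were below uncleaved DNA. In 255 to 274 the mean was -0.53 (SD 0.28 over 20 probe sets), and 19 were below 0. Within it the make of the difference changed over a short distance. At c6Mbo0262 Nup2-MN read 8.22, H2b-MN 8.73 and uncleaved DNA 9.07, so that both cleaved samples were below uncleaved DNA. At c6Mbo0271, Nup2-MN and uncleaved DNA both read 7.26, H2b-MN read 8.20, and the difference of -0.93 was that of the histone sample alone. The lowest domain by mean was 529 to 540 (mean -0.72, SD 0.47 over 12 probe sets), with 4 past 2-fold. In it c6Mbo0530 read 7.49 in Nup2-MN, 8.84 in H2b-MN and 7.95 in uncleaved DNA (difference -1.35). The lower domains 368 to 380, 288 to 294, 140 to 146 and 313 to 319 had means of -0.67, -0.69, -0.62 and -0.62, and no probe set in any of the 4 had a difference above 0. In 625 to 638, where the signal was high in all samples (8.63 in Nup2-MN, 9.19 in H2b-MN and 9.03 in uncleaved DNA), the mean was -0.56.

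The 2 lowest single values of the chromosome stood just outside lower domains, beside 106 to 107 and 1079 to 1083. c6Mbo0109 read 5.89 in Nup2-MN, 7.33 in H2b-MN and 6.08 in uncleaved DNA, a difference of -1.44. c6Mbo1078 read 5.86, 7.29 and 6.12 in the same order, a difference of -1.43. In both, Nup2-MN was within 0.3 of uncleaved DNA and the histone sample was 1.25 and 1.17 above it. Extremes of the other lower domains of at least 5 probe sets were c6Mbo0290 (-1.25), c6Mbo0313 (-1.20), c6Mbo0373 (-1.18), c6Mbo0568 (-1.18), c6Mbo0625 (-1.10), c6Mbo1080 (-1.09), c6Mbo0256 (-1.08) and c6Mbo0145 (-1.05), followed by c6Mbo0212 (-0.83) and c6Mbo1061 (-0.80). The 10 lowest values also held c6Mbo0529 (-1.22) and c6Mbo0534 (-1.22) in 529 to 540 and c6Mbo0848 (-1.19) in 843 to 866. Among lower domains of fewer than 5 probe sets, the extremes were -1.05 at c6Mbo0107, -0.74 at c6Mbo0086, -0.65 at c6Mbo0989, -0.63 at c6Mbo0772, -0.61 at c6Mbo0090, -0.56 at c6Mbo0994, -0.34 at c6Mbo0959 and, above 0, 0.10 at c6Mbo0384. Stretches with no break gave a stricter view. A difference of at least 0.5 was held by 164 probe sets (13.1% of the 1250) and one of -0.5 or less by 195 (15.6%), yet runs of 5 or more neighbours all past these values numbered only 5 on the higher side and 6 on the lower. The longest were 1174 to 1185 on the higher side, 12 probe sets with a mean of 1.28, and 857 to 863 on the lower, 7 probe sets with a mean of -0.63. The 4 other higher runs, 421 to 426, 662 to 668, 1025 to 1034 and 1163 to 1167, had means of 1.11, 1.19, 1.11 and 0.90. The 5 other lower runs, 143 to 147, 268 to 272, 313 to 317, 371 to 375 and 377 to 381, had means of -0.78, -0.76, -0.71, -0.85 and -0.63.

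Higher and lower probe sets also differed in the company they kept. Of the 54 probe sets at least 2-fold higher in Nup2-MN, 34 (63.0%) had a direct neighbour that was also past 2-fold, and the longest such group held 7. Of the 23 lower ones, 5 (21.7%) had such a neighbour, and the longest group held 3. The share past 2-fold was itself larger on the higher side (4.32% against 1.84%), so these shares are not at equal counts. The median difference of the direct neighbours was 0.87 for the higher ones and -0.46 for the lower ones. Domains of their own side held 40 of the 54 (74.1%) and 16 of the 23 (69.6%). Over all 1250 probe sets, 10.1% lay in higher domains and 12.6% in lower ones. No probe set past 2-fold lay in a domain of the opposite side. Each difference enters the running mean that defines the domains, so both results are favoured by construction and nothing is read from them. A few probe sets past 2-fold stood alone, with both neighbours under 0.5 in the same direction: 5 of the higher and 5 of the lower ones. The largest of these was c6Mbo0011, the third highest difference of all, at 8.43 in Nup2-MN, 6.42 in H2b-MN and 7.02 in uncleaved DNA (difference 2.02, or 4.04-fold). The differences of its neighbours c6Mbo0010 and c6Mbo0012 were 0.10 and 0.25. The next was c6Mbo0249, at 10.06 in Nup2-MN and 8.69 in H2b-MN (difference 1.37) between neighbours at -0.04 and -0.03.

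Of the 21 gaps between successive domains of at least 5 probe sets, 11 separated domains of opposite direction and 10 domains of the same direction. The median gap was 19 probe sets between opposite domains and 20.5 between like ones. The shortest, 5 probe sets, lay between the higher domain 828 to 837 (mean 0.87) and the lower domain 843 to 866 (mean -0.57). The lower domain 210 to 214 (mean -0.55) and the higher domain 224 to 234 (mean 0.73) were 9 apart. The largest single step in the difference was also a turn of direction. c6Mbo0420 read 6.62 in Nup2-MN, 7.82 in H2b-MN and 8.08 in uncleaved DNA (difference -1.20), and its neighbour c6Mbo0421 read 7.95, 7.10 and 8.63 (difference 0.85), a step of 2.05. The median step between neighbours was 0.24 in size, and 44 of 1249 steps (3.52%) were of 1 or more. The longest gaps held 153 and 152 probe sets, between 866 and 1020 and between 675 and 828. The longest stretch with no probe set past 2-fold, 910 to 1015, held 106, with a mean difference of -0.16 (SD 0.35). Before the first domain of at least 5 probe sets, at 140, lay 139 probe sets.

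The difference between the cleaved samples was more alike between neighbours than the signals it was made from. Across the 1249 pairs of neighbouring probe sets, which are not independent replicates, Pearson's r was 0.625 for Nup2-MN minus H2b-MN, against 0.397 for the Nup2-MN signal, 0.307 for the H2b-MN signal and 0.324 for the uncleaved signal. At a distance of 3 the value was 0.372 for the difference and between 0.080 and 0.163 for the 3 signals. At a distance of 10 it was 0.117 for the difference, and at 25 it was 0.004. Means over successive blocks of 10 probe sets took up 43.2% of the variance of the difference, where 9.93% would be taken up if order did not matter, and 28.3%, 21.1% and 22.4% of that of the Nup2-MN, H2b-MN and uncleaved signals. Blocks of 50 took up 18.5% of the variance of the difference, against 1.92%. Neighbouring probe sets may lie on the same MboI restriction fragment, and a probe's own brightness cancels in a difference; the part of these in the likeness was not tested.

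**Figure D5:**
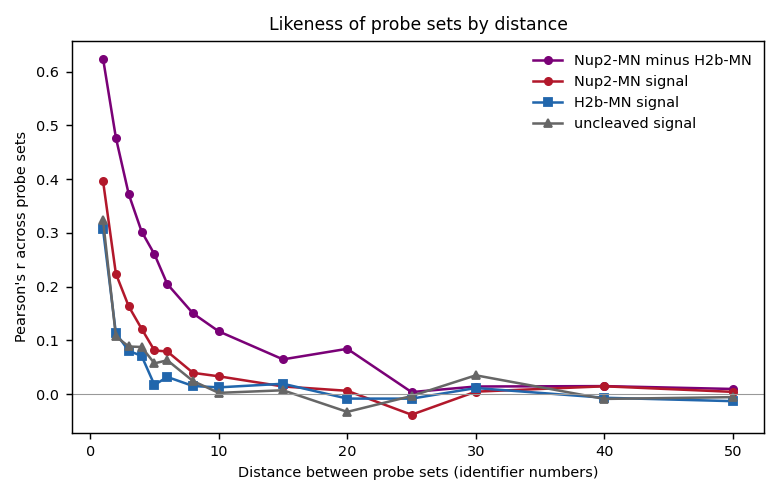
Pearson's r (vertical axis) between probe sets against their distance in identifier numbers (horizontal axis), for Nup2-MN minus H2b-MN and for the 3 signals. The difference starts at 0.625, above the signals at 0.307 to 0.397, and is near 0 from a distance of 25.

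The level in uncleaved DNA, which enters neither side of the difference, was used to see where on the intensity scale the departures lay. In 5 groups of 250 probe sets ordered by uncleaved signal, from dim to bright, the probe sets at least 2-fold higher in Nup2-MN numbered 8, 13, 8, 12 and 13. Those at least 2-fold lower numbered 4, 3, 10, 5 and 1. Higher probe sets were thus found at every level, and 10 of the 23 lower ones in the middle group (uncleaved signal 7.17 to 7.95). The SD of the difference was 0.40 in the dimmest group and 0.52 to 0.56 in the 4 others. The median difference was 0.005 in the dimmest group and -0.12 in each of the 3 brightest.

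In 5 successive stretches of 250 probe sets, the mean difference was -0.04, -0.11, -0.04, -0.12 and 0.16. The last stretch, 1001 to 1250, held 22 of the 54 probe sets at least 2-fold higher and 3 of the 23 lower, and 61 of the 126 probe sets in higher domains. The stretch from 251 to 500 held the most probe sets in lower domains, 48 of 157.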

How the data were processed

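Genomic DNA of 3 ChEC samples was biotin-labelled and hybridised to Affymetrix tiling arrays of chromosome VI, per the labels and the deposited README. Per that README, the authors grouped probes into sets of 16 or fewer that span no MboI site, computed log2 signals by RMA (robust multi-array averaging) with Bioconductor 1.5, and averaged 3 experiments per sample. RMA equalises the distributions of arrays, and a shift shared by most probe sets would be lost. Counts, depths and SDs between experiments were not used here, and the number of arrays limits the precision.

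From the deposited log2 means, Nup2-MN minus H2b-MN was taken as it stood. With 1 column a group no test was made. Thresholds were 2-fold for a probe set and 0.4 for a running mean over 11 probe sets (fewer at the chromosome ends). Named items were the 10 highest and 10 lowest probe sets, every domain with its most extreme probe set, and every run of 5 or more neighbours each at least 0.5 apart. Neighbours within these domains, lone probe sets and large steps were named after their values were seen. The comparison, its lists and its thresholds were chosen with earlier results of these data known. Alternatives were centring on column medians, quantile normalization over all 3 columns, leaving out the dimmest 10% or the first and last 50 probe sets, a lowess trend removed (span 0.4), 1.5-fold, a mean of 3 neighbours, domain thresholds of 0.3 and 0.5, running means over 7 and 21 and, added after the data were seen, domains of 5 or more only. The scripts were tested on simulated data. Python 3.11.15, numpy 2.4.6, pandas 2.3.3, statsmodels 0.14.6 and matplotlib 3.10.9 were used.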

Additional observations from a re-analysis of the deposited data

Results flagged for a closer look

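In 3 domains the cleaved samples lay on opposite sides of uncleaved DNA by a mean of at least 0.3 each, Nup2-MN above it and H2b-MN below it. In 331 to 336 Nup2-MN was 0.32 above and H2b-MN -0.34 below, a difference of 0.67. There the arrangement was one of means and not of most probe sets. Both samples were above uncleaved DNA at c6Mbo0331, c6Mbo0332 and c6Mbo0336, and both below it at c6Mbo0333 and c6Mbo0334. Only c6Mbo0335 had them on opposite sides, at 0.32 for Nup2-MN and -0.10 for H2b-MN. In 466 to 472 the means were 0.42 and -0.42, a difference of 0.84. In 1020 to 1039 they were 0.40 and -0.38, a difference of 0.78. With 1 column a group these differences between the cleaved samples were not tested. No domain of at least 5 probe sets showed the opposite arrangement at this size.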

How the results depend on the processing

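With 1 mean per group, counts past a threshold are not calls set against error. No paired analysis was possible because each group has a single column. Of 64 recomputed counts, medians and correlations, 45 kept close to the reported value (counts to within 1.5 times). Not all of them could move, since centring leaves the correlation between neighbours at 0.625 by construction. For medians the tolerance was wide: -0.030 under quantile normalization was counted as kept. Centring the columns gave a median difference of 0.097, against -0.065, and gave 14 probe sets 2-fold lower, 7 lower domains with 42 probe sets and 194 probe sets in higher domains. Removing the lowess trend gave a median of 0.011, 14 lower probe sets and 93 in lower domains. Centring removes the gap between the column medians by construction, and the other causes were not tested. A domain threshold of 0.3 put 240 probe sets in lower domains and 0.5 put 82. A running mean over 7 gave 20 higher domains, and one over 21 gave 7 higher and 9 lower domains, with 77 probe sets in the lower ones. Counting only domains of 5 or more gave 12 lower ones. The 2-fold counts became 136 and 145 at 1.5-fold and 29 and 4 for means of 3 neighbours. Of the 10 longer higher domains, all 10 were touched again by higher domains under centring, quantile normalization and the removed trend. Of the 12 longer lower ones, 7, 11 and 10 were. A running mean over 21 touched only 6 of the 10 higher and 6 of the 12 lower ones. A domain threshold of 0.5 touched 9 and 10. Further settings for single probe sets were centring, quantile normalization, trend removal and averaging of 3 neighbours. Of 44 probe sets, namely the 10 highest, the 10 lowest and the extreme of each domain, 2 changed sign in at least 1 of these 4 settings. For c6Mbo1212, reported at -0.07, centring gave 0.090 and trend removal 0.020. The difference of c6Mbo1018, reported at -0.47, was 0.45 as a mean of 3 neighbours. Averaging of 3 neighbours moved 24 of the 44 across the 2-fold threshold.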
